A study of Homo sapiens with 4 samples.

Results

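The 10 genes described here code for enzymes that use the tripeptide glutathione, namely the transferases GSTP1, GSTO1, GSTM4, GSTK1, MGST1, MGST2 and MGST3 and the peroxidases GPX1, GPX2 and GPX4. They were taken by name from a given list, and all 10 were found among the 58735 genes of the deposited table. The RNA came from HCT116 and LOVO, a pair of human colorectal cancer cell lines labelled as wild type, each grown as adherent cells and as spheroids, with 1 library per condition and 4 libraries in all. Adherent cells grew in RPMI-1640 with 10% FBS and carried no treatment in the labels. Spheroids were cultured in ultralow attachment dishes in serum-free DMEM/F12 with growth factors, and their label gives a treatment of 1 mg/ml without a drug, where the methods of the study name oxaliplatin at 1 μg/ml. Growth form, medium and drug changed together, so their parts in any difference cannot be told apart. With 1 library per condition there is no replicate error, and no p-value is given.

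Glutathione transferases join glutathione to reactive electrophiles, among them many drugs, and the products are pumped out of the cell by transporters of the ABCC family. The soluble transferases fall into classes named by Greek letters, while the 3 microsomal transferases sit in membranes and belong to an unrelated protein family. Glutathione peroxidases use glutathione to reduce hydrogen peroxide and organic peroxides, and GPX4 is the one that reduces peroxidised phospholipids inside membranes, which protects cells from ferroptosis, an iron-dependent form of cell death. GSTP1, of the pi class, is often abundant in carcinomas and has long been linked to platinum drugs, and GPX2 is known as the gastrointestinal peroxidase.

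All 3 peroxidases are selenoproteins, in which a TGA codon that would otherwise end translation is read as selenocysteine, the residue that does the chemistry. The 45 bases of coding sequence around this codon are shown because they set GPX1, GPX2 and GPX4 apart from the transferases and show how alike the 3 genes are at the catalytic residue. The sequences are from GENCODE 29 transcripts on GRCh38, and the capitals mark the selenocysteine codon, at chr3:49358132-49358134 on the minus strand for GPX1, at chr14:64942607-64942609 on the minus strand for GPX2 and at chr19:1105403-1105405 on the plus strand for GPX4.
GPX1: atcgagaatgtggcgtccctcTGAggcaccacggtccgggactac
GPX2: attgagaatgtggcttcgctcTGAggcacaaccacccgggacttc
GPX4: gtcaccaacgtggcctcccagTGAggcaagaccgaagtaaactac
GPX1 and GPX2 shared 37 of the 45 bases, GPX1 and GPX4 shared 28, GPX2 and GPX4 shared 25, and 24 were the same in all 3.

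Promoter windows of 300 bases, from 250 bases before the RefSeq start to 50 after it on GRCh38.p14, were at hand for 9 of the 10 genes, in 13 windows. They were searched on both strands for TGACNNNGC, the core of the antioxidant response element through which NRF2 (gene NFE2L2) acts, and for TGANTCA, the AP-1 motif. TGACNNNGC was present in 13.3% of all 35116 windows of the reference table and TGANTCA in 7.71%. Among the genes described here, GSTP1, GSTO1, GPX2 and 1 of the 3 windows of MGST1 held TGACNNNGC, the last at base 30 after the start. The matches before the start are shown with 20 bases on each side, the motif in capitals, since the regulators of this element are described further on.
GSTP1, chr11:67583726-67583774, plus strand: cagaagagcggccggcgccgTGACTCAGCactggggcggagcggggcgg
GSTO1, chr10:104254646-104254694, plus strand: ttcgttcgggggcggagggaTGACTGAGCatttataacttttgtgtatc
GSTO1, chr10:104254711-104254759, plus strand: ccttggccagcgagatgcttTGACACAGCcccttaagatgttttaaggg
GPX2, chr14:64942839-64942887, minus strand, motif on the opposite strand: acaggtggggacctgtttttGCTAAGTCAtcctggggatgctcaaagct
The GSTP1 match begins 66 bases before the start and overlaps the only TGANTCA match in the 13 windows. A match describes the letters of the window and not a bound site.

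The libraries held 15483569 to 20429147 reads on genes. The 2 libraries labelled LOVO stood apart in several markers of a colorectal epithelium. EPCAM was at 85.6 and 79.3 FPKM in HCT116 adherent cells and spheroids against 0.93 and 1.5 in LOVO, CDH1 was at 31.1 in both HCT116 libraries against 0.117 and 0.00805, and CDX2 was at 3.84 and 3.12 against 0 reads in both. Of 11 epithelial markers, 6 and 7 reached 1 FPKM in HCT116 and 3 and 4 in LOVO, with summed levels of 1754 and 1288 against 327 and 187. KRT8 was at 571 and 418 FPKM in HCT116 and at 189 and 81.6 in LOVO. KRT18 was at 253 and 206 against 122 and 98.8. CDH17, VIL1, CDX1 and LGALS4 were at 0.381 FPKM or lower in every library, so they do not set LOVO apart. Of 6 fibroblast markers, 1 reached 1 FPKM in each HCT116 library against 4 and 5 in LOVO, with summed levels of 5.60 and 16.1 against 54.0 and 72.8. LUM and DCN, both defining fibroblast markers, were at 0 to 0.0198 FPKM in HCT116 and at 9.97 to 50.4 in LOVO. The other fibroblast markers did not all follow, since COL1A1 was at 5.51 and 15.5 FPKM in HCT116 and at 9.89 and 6.10 in LOVO, and COL1A2 had at most 1 read in each library. Leukocyte markers reached 1 FPKM in 1 library, for 1 of 5 genes, and endothelial markers in LOVO alone, for 1 and 2 of 4 genes. The near absence of CDH1 and CDX2 goes against the colorectal epithelial origin that the label LOVO implies. Of the keratins in LOVO, KRT8 and KRT18 were expressed, KRT19 was far lower than in HCT116 and KRT20 was near 0. Whether these libraries are that line cannot be settled from these values, so LOVO is used here as the label. These markers move with the cell line in every comparison of LOVO with HCT116, and their part in the results was not tested.

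In FPKM, the fragments per kilobase of gene, scaled to the library size implied by the deposited values, GPX1 and GSTP1 led the 10 genes in HCT116, and GPX1 led in LOVO. GPX1, the main soluble peroxidase of most cells, was at 199 FPKM in HCT116 adherent cells, 179 in HCT116 spheroids, 232 in LOVO adherent cells and 265 in LOVO spheroids. GPX4 was at 121, 68.2, 87.9 and 73.0 FPKM in the same order, and GSTP1 at 209, 121, 67.0 and 39.2. These 3 genes took the first 3 places in every library, above at least 93.0% of the 14429 genes whose mean over the 4 libraries reached 1 FPKM. GSTO1 came next in every library. GSTM4 and MGST2 were the lowest of the transferases, from 1.96 to 11.9 FPKM.

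**Figure D1:**
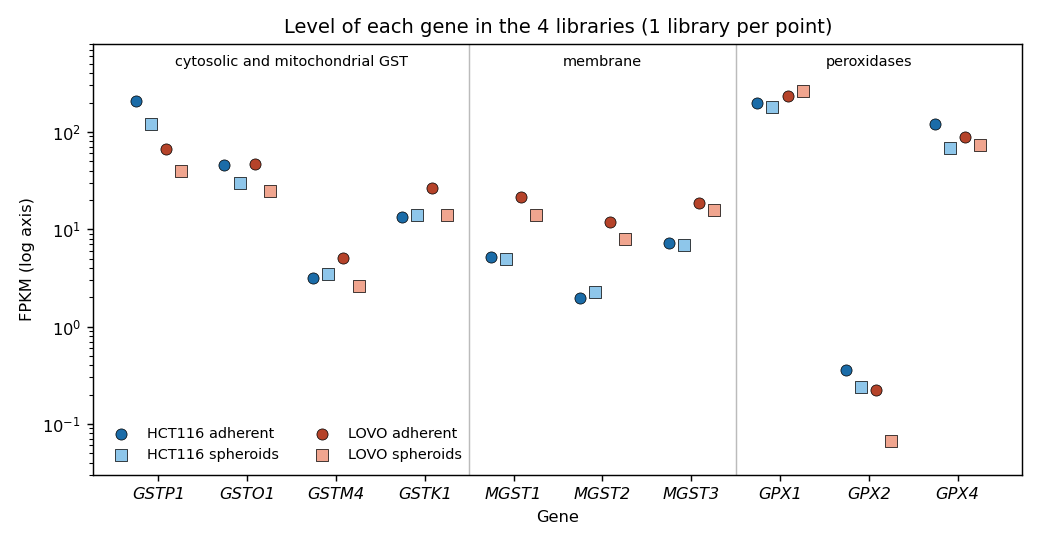
FPKM of each of the 10 genes on a log axis, with 1 point per library, circles for adherent cells and squares for spheroids, blue for HCT116 and red for LOVO. GPX1 lies between 179 and 265 FPKM in all 4 libraries, whereas GPX2 is at 0.360 or lower in each.

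GPX2 was close to absent from these libraries. It had 11 reads in HCT116 adherent cells, 6 in HCT116 spheroids, 6 in LOVO adherent cells and 2 in LOVO spheroids, which is 0.360, 0.238, 0.223 and 0.0663 FPKM. The value in LOVO spheroids was under the floor of 3 reads, and GPX2 was the 1 gene of the 10 that did not reach the mean of 1 FPKM, so 9 passed this filter. The counting intervals of all its ratios included 0 on the log2 scale, and no difference in GPX2 was detectable at this depth.

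The order between genes depends on the length used. The table divides by the bases of all annotated exons of a gene, which is 8401 for MGST3, 7440 for MGST1, 5745 for GSTM4 and 4228 for GSTK1, whereas the median protein-coding transcript has 747, 723.5, 1321 and 888 bases. With the median coding transcript length, a choice made after the data were seen, MGST3 was at 80.7, 78.3, 210 and 177 in the order above and MGST1 at 53.2, 50.3, 221 and 143. In LOVO adherent cells the order then became GPX1 at 326, MGST1, GPX4 at 219.7, MGST3 and GSTP1 at 178. In HCT116 GSTP1 was first in both libraries on that scale, at 553 and 322. GSTK1, MGST1 and MGST3 also share stretches of 50 to 79 bases with 107, 25 and 44 other annotated genes. Ratios of 1 gene between libraries do not depend on this length.

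Spheroids were then compared with adherent cells of the same line as differences of log2(FPKM + 1), a scale that shrinks the change of genes with low levels. In HCT116, GSTP1, GSTO1 and GPX4 were lower in spheroids by 1.54 to 1.78-fold, GPX1 was slightly lower, and the other 6 genes had counting intervals that included no difference. With reads on genes as the library size, the interval of GPX1 there included 0 and those of GSTK1 and GSTM4 lay above it. In LOVO, 8 of the 10 genes were lower beyond counting error and GPX1 was higher, but 6 were lower with TPM or with reads on genes as the library size, where the intervals of MGST3 and GPX4 included 0. The share of all genes with intervals away from 0 was not computed, so these counts do not set the 10 genes apart. None of the 10 reached a difference of 1, a 2-fold change, in either line. Among all genes compared, 2.19% were higher and 3.33% lower by at least that much in HCT116, and 8.57% and 7.85% in LOVO. The median difference over the 10 genes was -0.10 in HCT116, beside -0.03 over all genes compared (0.00 beside 0.05 with reads on genes as the library size), and -0.57 in LOVO, beside -0.06. The sign was negative for 7 of 10 genes in HCT116, or 5 with reads on genes as the library size, and for 9 of 10 in LOVO, while 53.4% and 53.5% of all genes compared were lower. The 95% exact intervals given beside the differences are those of the log2 ratio of FPKM, which lies further from 0 than the difference in genes with low levels. They were computed from the recovered reads and cover counting error only, so they compare 2 libraries and not the conditions.

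**Figure D2:**
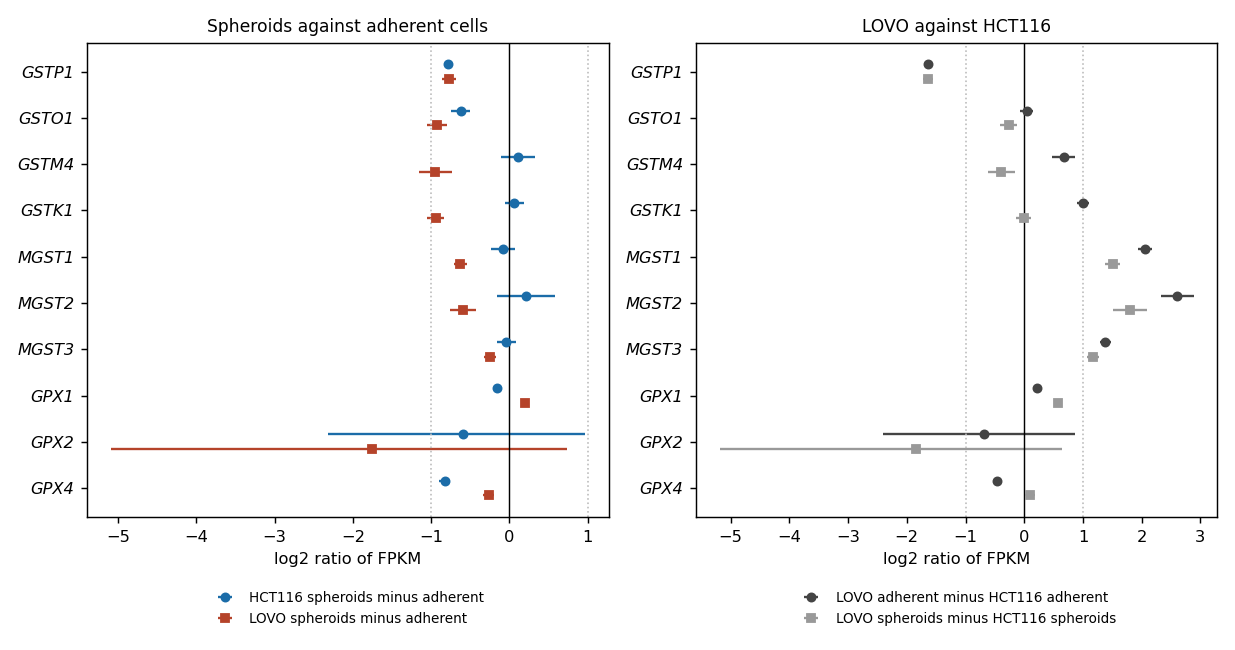
Log2 ratios of FPKM with 95% exact counting intervals for the 10 genes, spheroids against adherent cells on the left and LOVO against HCT116 on the right, with dotted lines at a 2-fold change. On the left the points of GSTP1 nearly coincide in the 2 lines at 1.72-fold and 1.71-fold lower, and on the right the 3 MGST genes lie past the 2-fold line in both growth forms while GSTP1 lies past it on the other side.

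GSTP1 (ENSG00000084207, chr11:67583595-67586656, plus strand) was lower in spheroids of both lines under every scaling tried. Its reads were 8126 in HCT116 adherent cells, 3899 in HCT116 spheroids, 2295 in LOVO adherent cells and 1507 in LOVO spheroids. The difference was -0.78 in HCT116, with a log2 ratio between -0.84 and -0.73, and -0.76 in LOVO, between -0.87 and -0.68. These are nearly the same, but with TPM the differences were -0.76 and -0.56 and their intervals no longer overlapped. Both adherent values lay above the spheroid value of the same line, and both HCT116 values lay above both LOVO values. No other annotated gene shared a stretch of 50 bases with GSTP1 or overlapped its exons.

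GSTO1 (ENSG00000148834, chr10:104235356-104267459, plus strand), an omega-class enzyme with thioltransferase and dehydroascorbate reductase activity, was also lower in both lines. It was at 45.6 and 29.6 FPKM in HCT116 adherent cells and spheroids and at 46.8 and 24.6 in LOVO. The difference was -0.61 in HCT116 (interval of the log2 ratio -0.74 to -0.50) and -0.90 in LOVO (-1.05 to -0.80). The 2 adherent libraries did not differ beyond counting error, with a difference between lines of 0.04 and an interval of -0.06 to 0.14. GSTP1 and GSTO1 were the 2 transferases with lower spheroid values beyond counting error in each line.

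GSTK1 and GSTM4 were lower in LOVO spheroids and not in HCT116 spheroids. GSTK1 (ENSG00000197448, chr7:143244093-143270854, plus strand), a kappa-class enzyme of mitochondria and peroxisomes, was at 13.4 FPKM in HCT116 adherent cells, 14.0 in HCT116 spheroids, 26.7 in LOVO adherent cells and 13.9 in LOVO spheroids. LOVO adherent cells stood above the other 3 libraries, which lay between 13.4 and 14.0 FPKM. The difference was 0.06 in HCT116, with an interval of -0.06 to 0.19, and -0.90 in LOVO, with an interval of -1.05 to -0.84. GSTM4 (ENSG00000168765, chr1:109656081-109674836, plus strand), of the mu class, was at 3.17, 3.43, 5.04 and 2.61 FPKM, again highest in LOVO adherent cells. Its difference was 0.09 in HCT116 and -0.74 in LOVO, and its log2 ratio was 0.11 (-0.10 to 0.33) and -0.95 (-1.16 to -0.74). The values of GSTM4 are uncertain, because 375 of its exonic bases overlap GSTM2 on the same strand. Transcripts of GSTM2 also share up to 377 bases in a row with those of GSTM4. Shorter stretches of 120 to 137 bases occur in GSTM1, GSTM5 and the pseudogene GSTM2P1, which had at most 4 reads in any library. GSTM2 itself had 75, 174, 8 and 11 reads against 371, 331, 519 and 302 for GSTM4.

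The 3 membrane transferases were nearly level in HCT116 and lower in LOVO spheroids. MGST1 (ENSG00000008394, chr12:16347142-16609259, plus strand), found in the endoplasmic reticulum and outer mitochondrial membrane, was at 5.18 and 4.90 FPKM in HCT116 and at 21.5 and 13.9 in LOVO, adherent cells first. MGST2 (ENSG00000085871, chr4:139665768-139740745, plus strand), which can also make leukotriene C4, was at 1.96 and 2.26 FPKM in HCT116 and at 11.9 and 7.86 in LOVO. MGST3 (ENSG00000143198, chr1:165630861-165661796, plus strand) was at 7.18 and 6.96 FPKM in HCT116 and at 18.7 and 15.7 in LOVO. For all 3 genes both LOVO values lay above both HCT116 values. The HCT116 differences were -0.07, 0.14 and -0.04, each with an interval that included 0. The LOVO differences were -0.60 for MGST1, -0.54 for MGST2 and -0.24 for MGST3, each with an interval below 0. MGST3 in LOVO was at -0.05 with TPM and -0.04 with reads on genes as the library size, within counting error. With reads on genes as the library size, the HCT116 differences of MGST1 and MGST3 turned to 0.03 and 0.07, so neither has a direction. Exons of MGST2 overlap those of MAML3 by 252 bases on the opposite strand, and the sources do not say whether the counting used strand.

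GPX4 and GPX1 behaved differently from each other. GPX4 (ENSG00000167468, chr19:1103926-1106791, plus strand) was lower in HCT116 spheroids by 0.82, with an interval of the log2 ratio from -0.90 to -0.76, on 4980 and 2312 reads. In LOVO it was at 3182 and 2967 reads and the difference was -0.26, with an interval from -0.34 to -0.19. It was -0.06 with TPM and -0.05 with reads on genes as the library size, both within counting error. HCT116 adherent cells had the highest GPX4 of the 4 libraries, and the other 3 lay between 68.2 and 87.9 FPKM. GPX1 (ENSG00000233276, chr3:49357171-49358600, minus strand, typed as a polymorphic pseudogene in the table) differed by -0.16 in HCT116 (-0.22 to -0.10) and by 0.19 in LOVO (0.14 to 0.24), so the 2 lines had opposite signs. The value in HCT116 was -0.04 with reads on genes as the library size. GPX1 shares 148 bases with the pseudogene GPX1P1, which had 17, 18, 97 and 113 reads against 4289 to 7623 for GPX1.

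The balance between the 2 abundant peroxidases therefore differed between libraries. GPX4 was at 0.607 times the FPKM of GPX1 in HCT116 adherent cells (95% counting interval 0.584 to 0.631) and at 0.382 in HCT116 spheroids (0.363 to 0.402). It was at 0.379 in LOVO adherent cells (0.363 to 0.396) and at 0.276 in LOVO spheroids (0.264 to 0.288). The ratio was lower in spheroids of both lines, and the intervals of HCT116 spheroids and LOVO adherent cells overlapped. This ratio does not depend on how the libraries were scaled, but its level depends on the lengths used, and with coding transcript lengths it was 1.08, 0.678, 0.674 and 0.490.

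The spheroid differences of the 2 lines had overlapping counting intervals for GSTP1 and GPX2 and separate ones for the other 8 genes. The share of all genes with separate intervals was not computed, so this count does not set the genes described here apart. The count also depends on the scaling. With TPM the intervals overlapped for GSTO1, MGST3 and GPX2, with TMM-style scaling and with reads on genes as the library size for GSTP1, GSTO1, MGST3 and GPX2, and with centring for GSTP1, MGST3 and GPX2. LOVO minus HCT116, the differences were -0.95 for GSTK1, -0.83 for GSTM4, -0.68 for MGST2, -0.53 for MGST1, -0.29 for GSTO1 and -0.20 for MGST3. They were 0.56 for GPX4, 0.35 for GPX1 and 0.02 for GSTP1. For 6 of the 7 transferases the LOVO difference was thus the more negative, and for GPX1 and GPX4 the HCT116 difference was. The share of all genes with the more negative difference in LOVO was not computed, so this does not set the transferases apart. With 1 library per condition these differences between lines were not tested.

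Between the lines, the membrane transferases were higher in LOVO and GSTP1 was higher in HCT116. LOVO adherent cells had 6.07 times the MGST2, 4.15 times the MGST1 and 2.61 times the MGST3 of HCT116 adherent cells, and 0.321 times the GSTP1. LOVO spheroids had 3.47, 2.84 and 2.25 times the MGST2, MGST1 and MGST3 of HCT116 spheroids, and 0.323 times the GSTP1. These 4 genes were past the 2-fold difference in both growth forms, 3 higher and 1 lower in LOVO. Among all genes compared, 17.4% were higher and 16.4% lower in LOVO adherent cells, and 17.7% and 15.0% in LOVO spheroids. In both directions together this was 33.8% in adherent cells. The count of 4 of 10 genes, the same in both growth forms, is near these shares and does not set the genes apart. The median over the 10 genes was 0.38 in adherent cells, beside 0.07 over all genes, and 0.04 in spheroids, beside 0.04. Just inside the threshold lay MGST3, with differences of 1.27 and 1.07, and just outside it GSTK1 in adherent cells, with 0.94. In spheroids GSTK1 differed by -0.01, with an interval of -0.13 to 0.11. GPX4 was lower in LOVO adherent cells by 0.46 and higher in LOVO spheroids by 0.10, and GPX1 was higher by 0.22 and 0.57.

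Within the summed transferase level, the lines also differed in make-up. The 7 transferases summed to 285 FPKM in HCT116 adherent cells, 183 in HCT116 spheroids, 198 in LOVO adherent cells and 118 in LOVO spheroids. GSTP1 made up 73.2% and 66.5% of this sum in HCT116 and 33.9% and 33.3% in LOVO. The membrane transferases together made up 5.02% and 7.73% in HCT116 and 26.3% and 31.8% in LOVO. With coding transcript lengths, the membrane share was 16.5%, 23.1%, 53.6% and 60.6% in the same order of libraries, so their share was higher on that scale in every library. On both scales it was higher in LOVO than in HCT116 and higher in spheroids than in adherent cells. The deposited FPKM of the membrane transferases themselves did not sum to more in spheroids. The sums were 14.3 in HCT116 adherent cells, 14.1 in HCT116 spheroids, 52.1 in LOVO adherent cells and 37.4 in LOVO spheroids.

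**Figure D3:**
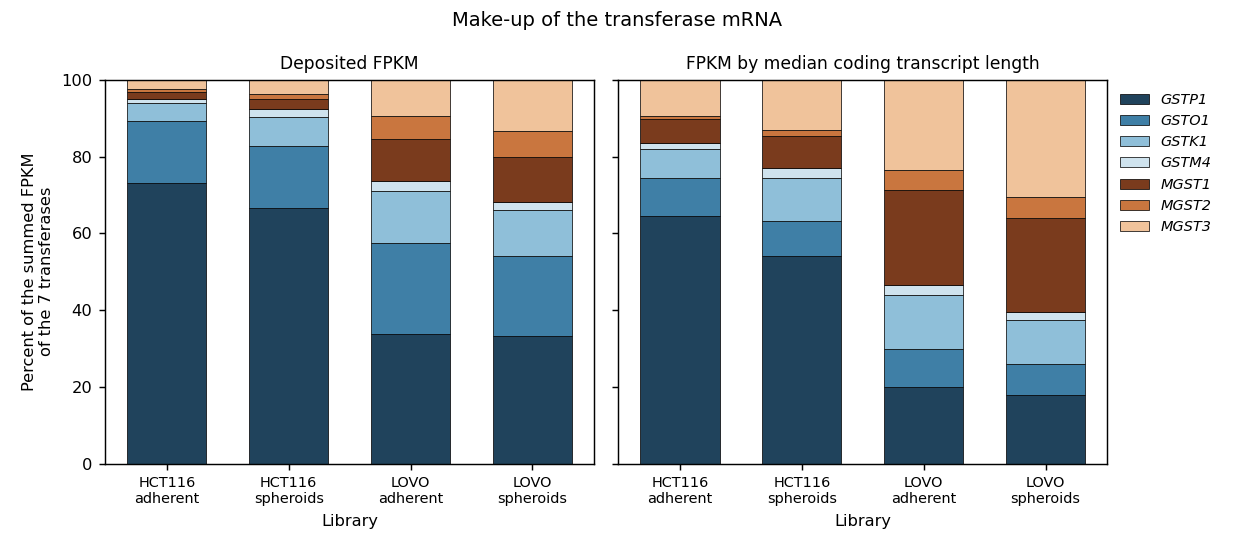
Percent of the summed FPKM of the 7 transferases taken by each gene in each library, with the deposited FPKM on the left and FPKM by median coding transcript length on the right. GSTP1, in dark blue, takes 73.2% of the deposited sum in HCT116 adherent cells and 33.3% in LOVO spheroids, while the MGST genes, in brown, take 5.02% and 31.8%.

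GSTP1 had the widest range of log2(FPKM + 1) over the 4 libraries, at 2.38. The 5 genes with the most similar profile, by Euclidean distance over 4 libraries after centring, were VPS37B at 0.162, TATDN1 at 0.194, BAIAP2 at 0.203, GSR at 0.227 and TOP1 at 0.229. GSR, the reductase that recycles glutathione, was at 72.1, 35.8, 19.4 and 10.3 FPKM. With 4 points such likeness is common, and 83 genes lay within 0.5 of GSTP1. GPX2 had the narrowest range, at 0.35, because it was near 0 throughout. Its nearest genes were RTN4IP1, PUS3, ARCN1, MTRF1 and BRAP, and 2859 genes lay within 0.5 of it.

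Other genes of glutathione biology were read from fixed lists, each described by counts past the 2-fold difference and by its median. Of 24 other transferases and peroxidases, 23 were found and 9 reached a mean of 1 FPKM. None of the 9 was past the 2-fold difference in either line, where 5.52% and 16.4% of all genes compared were past it. Their medians were 0.01 in HCT116 and -0.35 in LOVO. GSTA4, an alpha-class enzyme for products of lipid peroxidation, had the highest difference in HCT116, at 0.75, and GSTO2 the lowest, at -0.40. In LOVO, GSTT2B had the highest, at 0.63, on reads it may share with its near-identical copy GSTT2. GSTM3 had the lowest, at -0.85, with 2079 and 1248 reads in LOVO against 0 and 1 in HCT116.

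In the genes that supply glutathione, falls past the 2-fold difference were found in both lines. Of 16 compared, 3 fell and none rose past the 2-fold difference in HCT116, with a median of -0.62, and 8 fell and 2 rose in LOVO, with a median of -0.96. Over all genes compared, 3.33% fell and 2.19% rose that far in HCT116, and 7.85% fell and 8.57% rose in LOVO. SLC7A11, the cystine transporter, fell in both lines, with differences of -2.13 in HCT116 and -2.06 in LOVO, and so did its partner SLC3A2, with -1.86 and -2.97. CHAC1, which breaks glutathione down, had the largest fall in both lines, with 41.2 FPKM in adherent HCT116 cells and 5.06 in spheroids, and 60.9 and 2.56 in LOVO. The genes past the 2-fold difference in both lines thus act in uptake and in breakdown. Genes of synthesis and recycling, picked after their values were seen, were also lower. GCLC was at -0.75 in HCT116 and -1.33 in LOVO, and GSS at -0.53 and -1.08. GCLM was at -0.96 and -0.67, and GSR at -0.99 and -0.85. Of the list, 4 genes were higher in HCT116 spheroids and 3 in LOVO spheroids. GGT7, of the gamma-glutamyltransferase family, had the highest value of the list in both lines, with 0.97 in HCT116 and a rise of 2.15 in LOVO.

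Other enzymes that use glutathione and the exporters of its conjugates came next. Of 16 genes, none was past the 2-fold difference in HCT116, while 1 rose and 3 fell in LOVO, with medians of -0.32 and -0.35. These counts stand beside the 5.52% and 16.4% of all genes compared that were past it in the 2 lines. The extremes in HCT116 were the exporter ABCC2 at 0.76 and CLIC1, a relative of the omega class, at -0.85. In LOVO the exporter ABCC3 rose by 1.38 and the exporter ABCC4 fell by 1.70. In HCT116 the 3 exporters ABCC2, ABCC3 and ABCC4 were all higher in spheroids, at 0.76, 0.56 and 0.23, each below 2-fold, and in LOVO they split, at -0.44, 1.38 and -1.70.

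**Figure D4:**
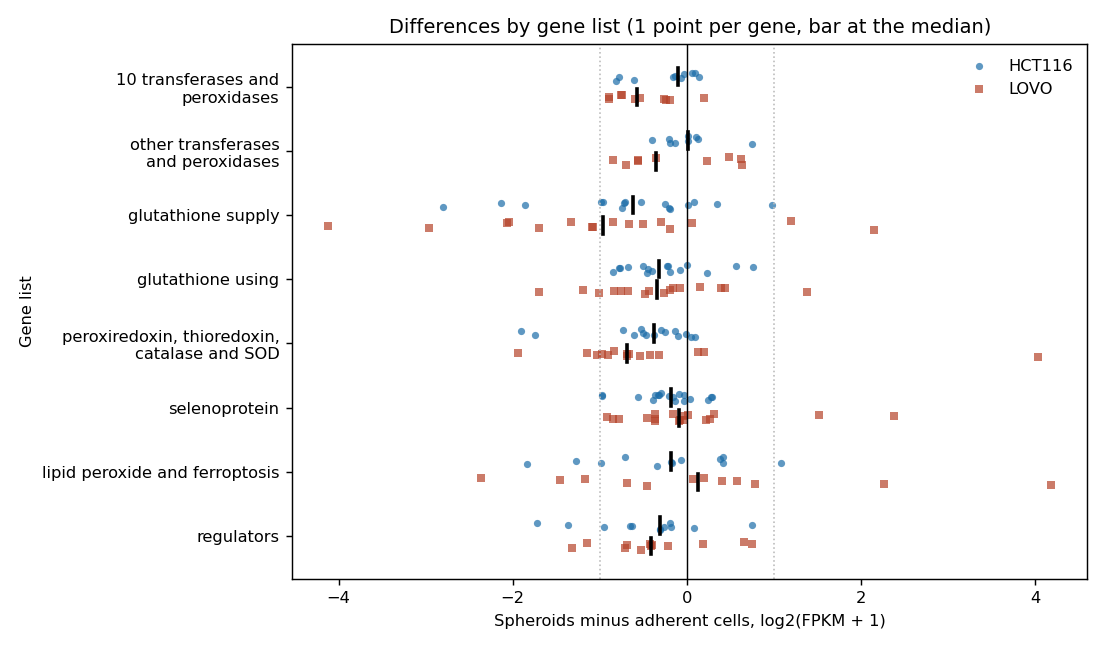
Difference between spheroids and adherent cells on the log2(FPKM + 1) scale for the 10 described genes and the compared genes of 7 further lists, with 1 point per gene, blue for HCT116 and red for LOVO, black bars at the medians and dotted lines at a 2-fold change. No point of the top row reaches the dotted lines, whereas the glutathione supply list has points down to -2.80 in HCT116 and -4.12 in LOVO.

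The list of peroxiredoxins, thioredoxins and their reductases, catalase and superoxide dismutases, of which the dismutases make hydrogen peroxide and the others reduce peroxides or serve those that do, had a median difference of -0.38 in HCT116, and of -0.69 in LOVO. Of 15 compared, 2 fell and none rose past the 2-fold difference in HCT116, and 3 fell and 1 rose in LOVO. Beside this, 5.52% and 16.4% of all genes compared were past it in the 2 lines. TXNRD1, the thioredoxin reductase and itself a selenoprotein, fell in both lines, with differences of -1.75 and -1.94. SRXN1, which repairs peroxiredoxins, had the largest fall in HCT116, with a difference of -1.91, and was at -0.42 in LOVO. SOD2, the mitochondrial superoxide dismutase, rose by 4.03 in LOVO, from 6.37 to 119.5 FPKM, and was at 0.05 in HCT116. TXNRD3 had the highest difference in HCT116, at 0.10.

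Selenoproteins and the factors that place selenocysteine, which GPX1, GPX2 and GPX4 need, were read next. Of 18 compared, none was past the 2-fold difference in HCT116 and 2 rose in LOVO, with medians of -0.19 and -0.09, where 5.52% and 16.4% of all genes compared were past it. The thioredoxin reductases, also selenoproteins, were counted in the list above. The 2 were SELENOM, by 2.37, and SELENOW, by 1.52, and SELENOW also had the highest difference in HCT116, at 0.29. SEPHS2, which makes the selenium donor, was lowest in HCT116 at -0.97. EEFSEC, the elongation factor for selenocysteine, was lowest in LOVO at -0.92.

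Genes that act beside GPX4 on lipid peroxides and iron moved in both directions. Of 12 compared, 1 rose and 2 fell past the 2-fold difference in HCT116, and 2 rose and 3 fell in LOVO, with medians of -0.18 and 0.13. The shares of all genes compared that were past it were 5.52% and 16.4%. FDFT1, of the sterol pathway, rose in both lines by 1.09 and 2.26, and FTL, the ferritin light chain, fell in both, with differences of -1.84 and -1.45. ACSL4, which activates polyunsaturated fatty acids as CoA esters, went from 19.9 to 379 FPKM in LOVO, a rise of 4.19. In HCT116 the difference of ACSL4 was 0.38. TFRC, the transferrin receptor, had the largest fall in LOVO, with a difference of -2.36.

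Among 12 regulators of antioxidant genes, none rose and 2 fell past the 2-fold difference in each line, with medians of -0.31 and -0.42. In both directions together, 5.52% in HCT116 and 16.4% in LOVO of all genes compared were past it, and the LOVO count is near that share. Falls alone made up 3.33% and 7.85% of all genes compared. With 2 genes in each line, the counts do not set the list apart. NFE2L2, which codes for the factor of the antioxidant response element shown above, was at 18.8 and 11.8 FPKM in HCT116, a difference of -0.63, and fell by 1.32 in LOVO, from 49.6 to 19.2. SQSTM1, a partner of KEAP1, had the largest fall in HCT116, with a difference of -1.73, and was at -0.42 in LOVO. AHR had the highest difference in HCT116, at 0.75, and NFE2L3 in LOVO, at 0.74.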

How the data were processed

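RNA-seq of 4 cell line libraries was analysed from the FPKM that the authors deposited for 58735 genes, made from total RNA with a SMARTER mRNA-Seq kit. The submitters' processing notes name the mouse build GRCm38 (mm10), although the samples are human. All 58735 gene identifiers are in the human GENCODE 29 annotation, and for all 10 genes described the table's length equals the exonic bases of that annotation. The aligner and the counter are not given in the sources used here. FPKM multiplied by gene length gave whole multiples of 1 step per library for 100% of values above 0 (tolerance 0.01), and this gave back the reads, from 15483569 to 20429147 per library. The step also gave the implied library size. It was 0.998 and 1.09 times the reads on genes in HCT116 adherent cells and spheroids, and 0.907 and 1.05 times in LOVO. TMM-style sizes were 0.970 to 1.01 times the implied sizes, so TMM-style scaling stayed close to the main setting.

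Differences were taken as log2(FPKM + 1), a pseudocount of 1, over the 14429 genes with a mean of at least 1 FPKM, and a difference of 1 was the threshold. Ratios carry exact Clopper-Pearson 95% intervals, which cover counting error only. Groups came from the labels, with 1 library each, so no test was made. Members and lists were chosen with earlier results of these data known. The genes named outside the 10 were, in each list, those past the threshold in the same direction in both lines and the highest and lowest in each line. For the genes with the widest and narrowest range, the 5 nearest profiles were named. Further genes picked after their values were seen are marked as such. Alternatives were other pseudocounts, TPM, TMM-style scaling, reads on genes as library size, centring on the median, other filters and a threshold of 2. The scripts were tested on simulated data. Python 3.11.15 with numpy 2.4.6, pandas 2.3.3, scipy 1.17.1 and matplotlib 3.10.9 was used.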

Additional observations from a re-analysis of the deposited data

Results flagged for a closer look

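GPX1 was the 1 gene of the 10 whose difference between spheroids and adherent cells had opposite signs in the 2 lines with both counting intervals away from 0. The difference was -0.16 in HCT116 and 0.19 in LOVO, so that the LOVO value exceeded the HCT116 value by 0.35 on the log2(FPKM + 1) scale. With 1 library per condition the difference between the lines was not tested. With reads on genes as the library size, the value was -0.04 in HCT116 and 0.41 in LOVO, and the HCT116 interval included 0.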

How the results depend on the processing

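No paired analysis was possible because there was 1 library per condition and the labels give no replicate numbers, and for the same reason no library could be left out. No median over the 10 genes changed sign under any alternative run. In HCT116 it was -0.10 and came to 0.00 with reads on genes as the library size, where the median of all genes was 0.05. The number of genes lower in LOVO than in HCT116 spheroids went from 5 to 4 with TPM and TMM-style scaling. In LOVO spheroids against adherent cells, the median over the 10 genes of -0.57 became -0.70 with a pseudocount of 0.1 and -0.70 with 0.01, -0.44 with TPM and -0.37 with reads on genes as the library size. With a pseudocount of 0.01, 1 gene passed the 2-fold difference there, which was GPX2 on 6 and 2 reads. LOVO against HCT116, the median in adherent cells became 0.25 with reads on genes as the library size, and in spheroids 0.28 with TPM. At a difference of 2, 1 gene remained past it in adherent cells and 0 in spheroids. TPM moved the median of all genes from 0.04 to 0.26 between the spheroids of the lines and from -0.06 to 0.10 in LOVO, so the TPM medians above are to be read against these. Single-gene values were counted as steady if they moved less than the distance from the middle of their counting interval to its ends. This limits the size of the move and does not place a value inside the interval, and it is very wide for GPX2. By it, 57 of 60 values were steady in HCT116, 44 in LOVO, 41 between adherent cells and 47 between spheroids. Signs turned for MGST1 (0.03) and MGST3 (0.07) in HCT116 with reads on genes as the library size, for GSTO1 between adherent cells with that scaling (-0.10) and with centring, and for GSTK1 between spheroids with TPM (0.22) and TMM-style scaling (0.05). In LOVO, MGST3 at -0.05 and GPX4 at -0.06 were within counting error with TPM, and so was GPX4 between the spheroids with reads on genes as the library size and with centring. The share of genes past 2-fold that were higher was 39.7% in HCT116 and 52.2% in LOVO, and with reads on genes as the library size it was 52.4% and 68.3% (70.0% in LOVO with TPM). Without a filter on low values, 1.88% of genes in HCT116, 4.84% in LOVO, 9.56% between adherent cells and 9.98% between spheroids were past 2-fold, in place of 5.52%, 16.4%, 33.8% and 32.7%. The median coding transcript length and the numbers of lower genes were alternatives chosen after seeing the data. Depth limits GPX2, with at most 11 reads.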

Other observations

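Genes of the same lists that were outside the naming rule, picked here after their values were seen, differed in other ways. NNT, the mitochondrial enzyme that makes NADPH for glutathione recycling, was at 0.0119 and 0.0217 FPKM in HCT116 adherent cells and spheroids and at 37.5 and 26.2 FPKM in LOVO. HMOX1, heme oxygenase, fell by 1.27 in HCT116 spheroids, from 21.7 to 8.41 FPKM, and had a difference of 0.79 in LOVO, from 3.52 to 6.80 FPKM. IDH1, a cytosolic source of NADPH, had a difference of 0.34 in HCT116 and fell by 2.05 in LOVO, from 93.6 to 21.9 FPKM. With 1 library per condition these differences between the lines were not tested.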
